A study of Mus musculus with 24 samples.

Results

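The genes described here are 39 mouse genes of glutathione conjugation, of the NRF2 response and of NADPH supply, measured in 24 bulk livers from a study of liver cancer on an injury background. They were chosen by name from these pathways: the glutathione S-transferases of the alpha, mu, pi, theta, kappa, omega, zeta and microsomal classes, the enzymes that make and recycle glutathione, well-known NRF2 target oxidoreductases, 3 enzymes that act beside or after conjugation, and 4 genes of the pentose phosphate pathway. The choice was made with earlier results of these data known. The deposited table held 53467 rows, of which 19381 genes passed a filter of at least 0.5 CPM (counts scaled to library size) in at least 2 livers, and all 39 of 39 members passed it. Mice were C57BL/6JAusb males aged 14 to 15 weeks, and all of them, controls included, received a hydrodynamic tail vein injection with 0.8 µg of a plasmid for the Sleeping Beauty (SB) transposase, which inserts transposon plasmids into the genome of the hepatocytes that take them up. SB/AKT/NRas livers also received 10 µg each of plasmids for myristoylated AKT and the NRasV12 mutant, SB/AKT/c-Met livers 10 µg each of plasmids for myristoylated AKT and human c-Met, and SB livers no oncogene. Thioacetamide (TAA), a hepatotoxin that perivenous cytochrome P450 activates, or saline was begun 8 to 10 days later and given in 10 to 11 intraperitoneal injections over 5 to 6 weeks, the first TAA dose being 100 mg/kg and the later ones 200 mg/kg. There were 5 mice with SB/AKT/NRas + TAA, 4 with SB/AKT/NRas + saline, 4 with SB/AKT/c-Met + TAA, 3 with SB/AKT/c-Met + saline, 4 with SB + TAA and 4 with SB + saline, and each sample was 1 mouse. The plasmids use broadly active promoters, and the injected liver is a mosaic of transfected and other cells, so each value is a mean over tumor, injured and normal tissue. In bulk tissue, fewer cells of a type and less RNA per cell cannot be told apart.

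Glutathione S-transferases join glutathione to electrophilic drugs, toxins and lipid peroxidation products, which are then trimmed, acetylated and exported as mercapturic acids. The transcription factor NRF2, held down by KEAP1 until electrophiles or oxidants modify KEAP1, acts through antioxidant response elements to raise many of these transferases together with quinone and carbonyl reductases, the enzymes of glutathione synthesis and the NADPH-forming enzymes of the pentose phosphate pathway. NADPH in turn feeds glutathione reductase and thioredoxin reductase, and the non-oxidative branch of the pathway links it to ribose and glycolysis.

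Each library held between 2152510 and 3399247 counts assigned to genes. The percent of records assigned was 15.6 to 16.69 in SB + saline livers, below every TAA liver. It was 20.68 to 23.13 in SB + TAA, 19.9 to 22.49 in SB/AKT/c-Met + TAA and 19.41 to 22.73 in SB/AKT/NRas + TAA livers. Normalization factors (TMM) were 0.7722 to 0.8181 in SB + saline livers and 0.8459 or more in all others. What these differences did to the results was not tested. The human NRAS transgene took 52 to 302 counts in SB/AKT/NRas + TAA livers and 28 to 768 in SB/AKT/NRas + saline livers, against at most 2 counts in every other group, and human MET took 2 to 31 counts in the 7 SB/AKT/c-Met livers and none elsewhere. SB/AKT/NRas + saline replicate 1 had the fewest NRAS counts, 28, and among the 17 members called in its group it was the liver closest to control for 16, the lowest of those that rose or the highest of those that fell. SB + TAA replicate 4 stood apart by skeletal muscle genes, whose summed level was 7217 CPM there and 4.16 to 33.8 CPM in the other livers. Among the 15 members called in SB + TAA livers, replicate 1 was the closest to control for 9, replicate 2 for 6 and replicates 3 and 4 for 0. SB/AKT/c-Met + saline replicate 2 was the farthest from SB + saline for all 7 members called in its group. Counts of members called that leaving out these livers moves by more than 1.5 times are given with and without them.

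Across the 6 groups, 19 of the 39 members differed (edgeR quasi-likelihood F test, Benjamini-Hochberg adjusted p under 0.05 over 19381 genes), against a background of 1744 of all genes tested (9.0%). They were Gsta1, Gsta2, Gstm1, Gstm2, Gstm3, Gstm4, Gstm5, Gstt3, Mgst2, Mgst3, Nqo1, Srxn1, Cbr1, Cbr3, Ugdh, Nat8, G6pdx, Pgd and Tkt. Mean CPM was lowest in SB + saline livers for 23 members and highest in SB/AKT/NRas + TAA livers for 20. The same order was not counted over all genes, so these counts have no background. Oncogenes without TAA and TAA without oncogenes both moved part of the set, mostly upwards, and Gsta1, Gstm1, Gstm2, Gstm3 and Cbr1 rose and Nat8 fell in all 5 groups set against SB + saline. These 5 comparisons share the same 4 SB + saline livers. The members were chosen with earlier results of these data known, so their shares describe them and do not test the set.

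In SB/AKT/NRas + TAA livers 18 members rose and 2 fell against SB + saline, where 5.69% of all genes rose and 3.57% fell, and 14 of those that rose and 1 that fell did so by more than 2-fold (background 5.92% in both directions). The median log2 fold change was 0.68 over the members and 0.07 over all genes tested. With AKT and NRas but no TAA, in SB/AKT/NRas + saline livers, 14 members rose and 3 fell (background 5.54% and 2.87%, or 8.41% in both directions, 6.02% past 2-fold), with medians of 0.41 and 0.07. Without replicate 1 of SB/AKT/NRas + saline livers 23 members were called, and without replicate 2, 3 or 4 the count was 8, 10 or 10. Leaving out SB + saline replicate 1, 2 or 4 gave 10, 10 or 11. Gsta1, Gstm2, Gstm3, Srxn1, Cbr3, Nat8, G6pdx and Pgd kept their call in every one of these fits. With counts scaled by library size alone, which raised the median of all genes, 22 members rose and 1 fell.

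In SB/AKT/c-Met + TAA livers 14 members rose and 2 fell against SB + saline (background 2.68% and 1.08%), with medians of 0.55 over the members and 0.04 over all genes. In SB/AKT/c-Met + saline livers 6 rose, Gsta1, Gstm1, Gstm2, Gstm3, Cbr1 and Cbr3, and Nat8 fell (background 0.599% and 0.0413%, or 0.640% in both directions). That count rested on replicate 2: without it 1 member was called, Gstm3. Without SB + saline replicate 2, 3 or 4 it was 4 members each time.

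In SB + TAA livers, TAA alone, 13 members rose and 2 fell against SB + saline (background 3.46% and 2.52%, or 5.97% in both directions), with medians of 0.38 over the members and 0.08 over all genes. Gsta1, Gstm1, Gstm3, Ugdh and Pgd kept their call whichever liver was left out. The count was 6 without SB + TAA replicate 4, the liver with the muscle genes, 8 without SB + TAA replicate 3, and 8, 5, 7 or 7 without SB + saline replicate 1, 2, 3 or 4.

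**Figure D1:**
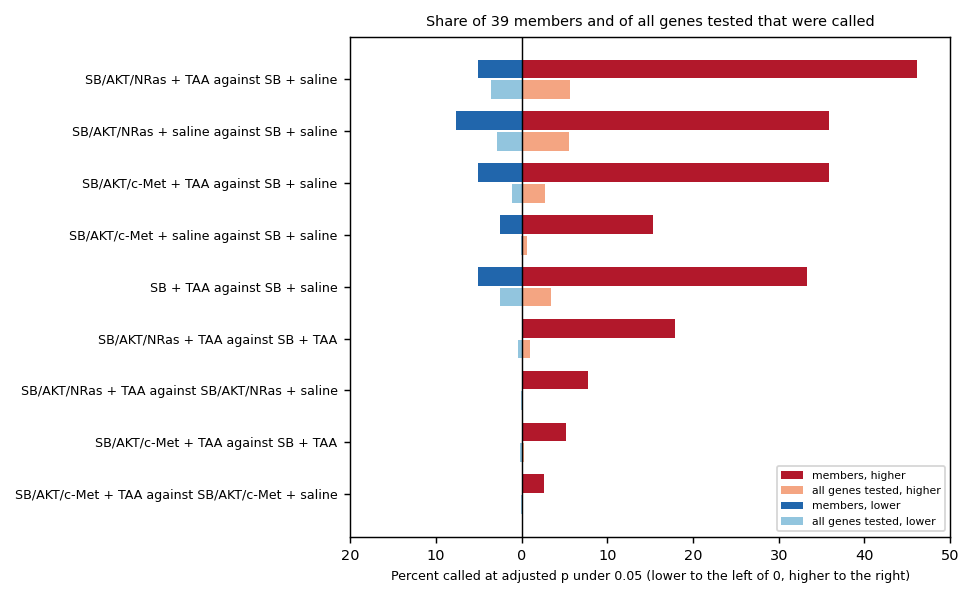
Share of the 39 members (dark bars) and of all 19381 genes tested (pale bars) called at adjusted p under 0.05, in percent, higher to the right of 0 and lower to the left, for 9 comparisons. The bars for members that rose are longer than those for all genes in each comparison shown, as in SB/AKT/NRas + TAA against SB + saline with 18 members and a background of 5.69%.

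**Figure D2:**
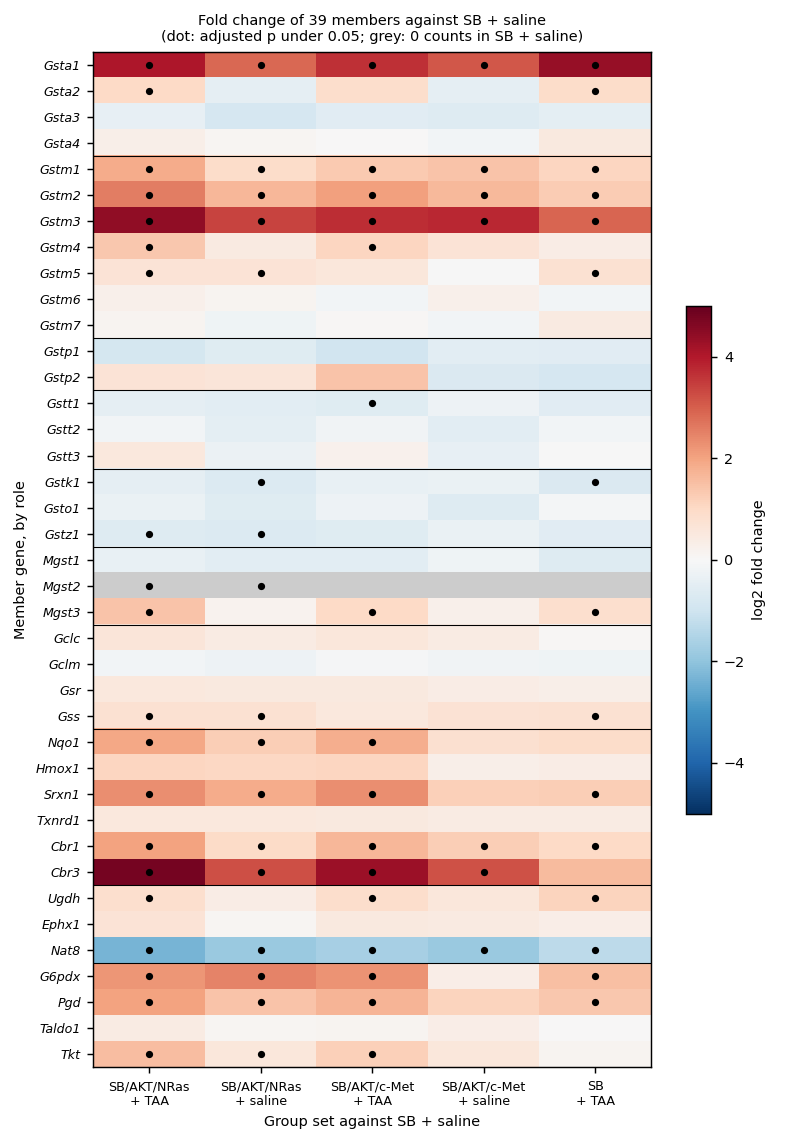
Log2 fold change of each of the 39 members (rows, grouped by role) in 5 groups (columns) against SB + saline, with red for higher and blue for lower, and a dot where adjusted p was under 0.05. Grey marks Mgst2, which had 0 counts in all SB + saline livers, and the deepest reds are Gsta1, Gstm3 and Cbr3.

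Markers of other cell types were read in the same groups. Against SB + saline, 5.69% of all genes rose and 3.57% fell in SB/AKT/NRas + TAA livers, and 5.54% and 2.87% in SB/AKT/NRas + saline livers. The shares were 2.68% and 1.08% in SB/AKT/c-Met + TAA livers and 3.46% and 2.52% in SB + TAA livers. A list with 1 marker called was not read as moved. Of 10 macrophage markers, 6 rose in SB/AKT/NRas + TAA livers, 4 in SB/AKT/NRas + saline livers, 5 in SB/AKT/c-Met + TAA livers, and 3 in SB + TAA livers, and their summed level was 329 to 667, 344 to 526, 344 to 588 and 370 to 429 CPM in these groups, against 177 to 358 CPM in SB + saline livers. Of 7 bile duct markers tested, 1 rose in SB/AKT/NRas + TAA livers, with a summed level of 231 to 4767 CPM, 3 in SB/AKT/NRas + saline livers, with 154 to 8806 CPM, and 1 in SB + TAA livers, with 136 to 246 CPM, against 61.6 to 106 CPM in SB + saline livers, where Cldn4 had 0 counts. Of 6 neutrophil markers, 1 rose in SB/AKT/NRas + TAA livers and 2 in SB/AKT/NRas + saline livers, with summed levels of 13.2 to 42.4 and 14.9 to 97.3 CPM, against 3.42 to 13.3 CPM in SB + saline livers. In SB/AKT/c-Met + TAA livers the summed level was 96.7 to 634.6 CPM for bile duct and 8.062 to 20.35 CPM for neutrophil markers. The summed bile duct level of the SB/AKT/NRas livers was mostly that of 1 gene, Spp1. It had 28566 counts in SB/AKT/NRas + TAA livers and 40270 in SB/AKT/NRas + saline livers, against 629 and 990 for Sox9 and 114 and 104 for Krt19.

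Of 10 stellate cell markers, 3 rose in SB/AKT/NRas + TAA livers, 5 in SB/AKT/NRas + saline livers and 4 in SB + TAA livers, with summed levels of 324 to 706, 253 to 907 and 394 to 817 CPM, against 214 to 354 CPM in SB + saline livers. In SB/AKT/c-Met + TAA livers the summed stellate level was 373.4 to 550.5 CPM, above every SB + saline liver. The 817 CPM was that of SB + TAA replicate 4, the liver with the muscle genes, and without it the SB + TAA livers reached 468 CPM and 0 stellate markers were called. Of these 4, Des is also made by muscle, and it had 97.9 CPM in that liver and 0.687 to 4.88 CPM in the other 23. Of 10 perivenous hepatocyte markers, 6 fell in SB/AKT/NRas + TAA livers, 3 in SB/AKT/NRas + saline livers, 4 in SB/AKT/c-Met + TAA livers and 4 in SB + TAA livers. The summed perivenous level was 1121 to 1370, 802 to 3010, 1004 to 1888 and 819 to 1558 CPM in these groups, against 2959 to 5123 CPM in SB + saline livers. Of 8 periportal markers, 4 fell in SB/AKT/NRas + saline livers, at 1183 to 3216 CPM, against 3188 to 4107 CPM in SB + saline livers. In SB/AKT/NRas + TAA livers and in SB + TAA livers 1 periportal marker rose. Of 10 general hepatocyte markers, 5 fell in SB/AKT/NRas + TAA livers and 1 in SB + TAA livers. Their summed level was 64380 to 90670 CPM in SB/AKT/NRas + TAA livers and 63420 to 102800 CPM in SB/AKT/NRas + saline livers. It was 66700 to 95700 CPM in SB/AKT/c-Met + TAA livers. These 3 groups lay below every SB + saline liver, at 112700 to 132700 CPM, while SB + TAA livers, at 94800 to 126800 CPM, overlapped with them. None of these 7 lists had a marker called in SB/AKT/c-Met + saline livers, where the summed levels were 216 to 430 CPM for macrophages, 50.9 to 384 for bile duct, 4.50 to 10.2 for neutrophils, 280 to 466 for stellate cells, 2212 to 2844 for perivenous, 2586 to 3513 for periportal and 78110 to 90170 for general hepatocyte markers, the last against 112700 to 132700 CPM in SB + saline livers. Their part in the results for the members was not tested.

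The alpha class held the member with the largest response to TAA alone. Gsta1, an alpha transferase that conjugates lipid aldehydes and other electrophiles, had 300.5, 269, 157, 211 and 262 CPM in SB/AKT/NRas + TAA livers, 32.5, 127, 115 and 144 in SB/AKT/NRas + saline livers, 166, 209.9, 182 and 169.8 in SB/AKT/c-Met + TAA livers and 38.4, 262 and 76.1 in SB/AKT/c-Met + saline livers. Its level was 271, 104, 370.4 and 449 CPM in SB + TAA livers, against 11.1, 16.5, 12.9 and 17.5 in SB + saline livers. No liver of the other groups overlapped with SB + saline. Gsta1 rose by 4.37 ± 0.50 on the log2 scale in SB + TAA livers (SE, adjusted p = 4.76e-06), 4.05 ± 0.49 in SB/AKT/NRas + TAA livers (adjusted p = 4.91e-06), 2.86 ± 0.48 in SB/AKT/NRas + saline livers (0.00076), 3.65 ± 0.49 in SB/AKT/c-Met + TAA livers (4.14e-05) and 3.12 ± 0.50 in SB/AKT/c-Met + saline livers (0.00137). Of the 50-base windows of the Gsta1 transcript, 89.7% also occur in transcripts of other genes, mostly Gm3776, and 64.2% of those of Gsta2, mostly in Gsta1, so reads of these genes can be lost or shared and their levels are uncertain.

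Gsta2, a second alpha transferase, rose with TAA in all 3 plasmid settings. It had 190.5, 125, 168, 180.4 and 115 CPM in SB/AKT/NRas + TAA livers, 69.4, 69.9, 27.8 and 62.1 in SB/AKT/NRas + saline livers, 146, 165, 129.7 and 140.3 in SB/AKT/c-Met + TAA livers and 38.9, 89.2 and 45.3 in SB/AKT/c-Met + saline livers. The livers without oncogenes had 92.4, 205, 152 and 143 CPM in SB + TAA livers, against 84.7, 69.3, 85.7 and 73.2 in SB + saline livers. Every TAA liver lay above every SB + saline liver, and within both oncogene settings no TAA liver overlapped with a saline one. Gsta2 rose by 1.45 ± 0.25 in SB/AKT/NRas + TAA livers set against SB/AKT/NRas + saline livers (adjusted p = 0.00741), by 1.32 ± 0.29 in SB/AKT/c-Met + TAA livers set against SB/AKT/c-Met + saline livers (0.0438) and by 0.92 ± 0.26 in SB + TAA against SB + saline (0.0333). The SB + TAA call of Gsta2 was lost in 8 of 17 refits, with another setting or a liver left out. Against SB + saline, the log2 fold change of Gsta2 was -0.46 ± 0.26 in SB/AKT/NRas + saline livers and -0.43 ± 0.29 in SB/AKT/c-Met + saline livers, short of the threshold (adjusted p = 0.317 and 0.624). The remaining alpha members were not called in any comparison, Gsta3 ranging over 1346 to 4588 CPM and Gsta4, which prefers hydroxynonenal, over 79.6 to 238 CPM.

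Of the 7 mu-class members, 5 differed among the groups, and Gstm1, Gstm2 and Gstm3 rose in every group against SB + saline. These genes lie side by side on chromosome 3. Gstm1, the main mu transferase of liver, had 6867, 6767, 6483, 7767 and 6363 CPM in SB/AKT/NRas + TAA livers, 3233, 4894, 2925 and 3569 in SB/AKT/NRas + saline livers, 4683, 5154, 5184 and 4203 in SB/AKT/c-Met + TAA livers and 2690, 8474 and 4236 in SB/AKT/c-Met + saline livers. Its level was 2762, 4935, 4229 and 4158 CPM in SB + TAA livers, against 1948, 1906, 1913 and 1902 in SB + saline livers. The SB + saline livers spanned only 1902 to 1948 CPM, and no other liver came down to them. Gstm1 rose by 1.84 ± 0.24 in SB/AKT/NRas + TAA livers (adjusted p = 1.89e-05), 1.33 ± 0.25 in SB/AKT/c-Met + TAA livers (0.00183) and 1.07 ± 0.25 in SB + TAA livers (0.01).

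Gstm3 changed the most of the mu class. It had 2168, 1750, 1149, 1385 and 1489 CPM in SB/AKT/NRas + TAA livers, 299.7, 1295, 604 and 849.5 in SB/AKT/NRas + saline livers, 674, 1297, 1058 and 808 in SB/AKT/c-Met + TAA livers and 393, 1987 and 625 in SB/AKT/c-Met + saline livers. Without oncogenes the livers had 284, 612, 668 and 641 CPM in SB + TAA livers, against 102, 63.6, 59.1 and 68.9 in SB + saline livers. The lowest of the 20 other livers was above the highest SB + saline liver. The rise was 4.43 ± 0.44 in SB/AKT/NRas + TAA livers (adjusted p = 5.55e-07), 3.37 ± 0.43 in SB/AKT/NRas + saline livers (5.35e-05), 3.71 ± 0.43 in SB/AKT/c-Met + TAA livers (8.81e-06), 3.77 ± 0.45 in SB/AKT/c-Met + saline livers (1.8e-05) and 2.91 ± 0.42 in SB + TAA livers (0.000127). Gstm3 was called in all 5 under every omission of a liver. Of its 50-base windows 28.8% occur in other transcripts, as do 23.1% of those of Gstm1.

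Gstm2 had 409.9, 348, 255, 269 and 287 CPM in SB/AKT/NRas + TAA livers, 91.8, 209, 184 and 171 in SB/AKT/NRas + saline livers, 167, 283, 229 and 184 in SB/AKT/c-Met + TAA livers and 79.6, 271 and 129 in SB/AKT/c-Met + saline livers. The corresponding values were 81.96, 117, 154 and 148 CPM in SB + TAA livers, against 73.1, 41.5, 39.03 and 56.5 in SB + saline livers. Gstm2 separated the groups as Gstm3 did, with no overlap with SB + saline. It rose by 2.58 ± 0.30 in SB/AKT/NRas + TAA livers (adjusted p = 3.96e-06) and by 1.25 ± 0.30 in SB + TAA livers (0.0129). Gstm4 had 167, 151, 160.5, 173 and 136 CPM in SB/AKT/NRas + TAA livers, 97.1, 90.1, 56.2 and 92.4 in SB/AKT/NRas + saline livers, 118, 179, 136 and 91.2 in SB/AKT/c-Met + TAA livers and 68.5, 137 and 92.9 in SB/AKT/c-Met + saline livers. Without oncogenes Gstm4 had 60.1, 82.4, 105 and 70.5 CPM in SB + TAA livers, against 76.6, 82.3, 44.3 and 44.5 in SB + saline livers. It rose where oncogenes and TAA were combined, by 1.35 ± 0.23 in SB/AKT/NRas + TAA livers (adjusted p = 0.000433) and 1.09 ± 0.24 in SB/AKT/c-Met + TAA livers (0.00816), and its changes of 0.37 ± 0.24 with TAA alone, 0.44 ± 0.24 with AKT and NRas alone and 0.69 ± 0.26 with AKT and c-Met alone were not called.

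Gstm5 had 38.02, 37.5, 31.6, 36.1 and 46.6 CPM in SB/AKT/NRas + TAA livers, 30.8, 37.6, 48.8 and 34.5 in SB/AKT/NRas + saline livers, 24.2, 35.5, 42.3 and 36.8 in SB/AKT/c-Met + TAA livers and 20.8, 29.7 and 20.2 in SB/AKT/c-Met + saline livers. Its levels without oncogenes were 31.2, 36.7, 40.95 and 53.5 CPM in SB + TAA livers, against 26.1, 17.04, 22.5 and 28.7 in SB + saline livers. Its log2 fold changes were 0.68 ± 0.20 in SB/AKT/NRas + TAA livers (adjusted p = 0.0287), 0.68 ± 0.21 in SB/AKT/NRas + saline livers (0.0398) and 0.78 ± 0.21 in SB + TAA livers (0.0245). With another setting or a liver left out, these calls of Gstm5 were lost in 6 of 18, 8 of 17 and 4 of 17 refits, in the same order. Gstm6 and Gstm7 were not called in any comparison and ranged over 51.4 to 107 and 26.7 to 72.98 CPM in the 24 livers.

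**Figure D3:**
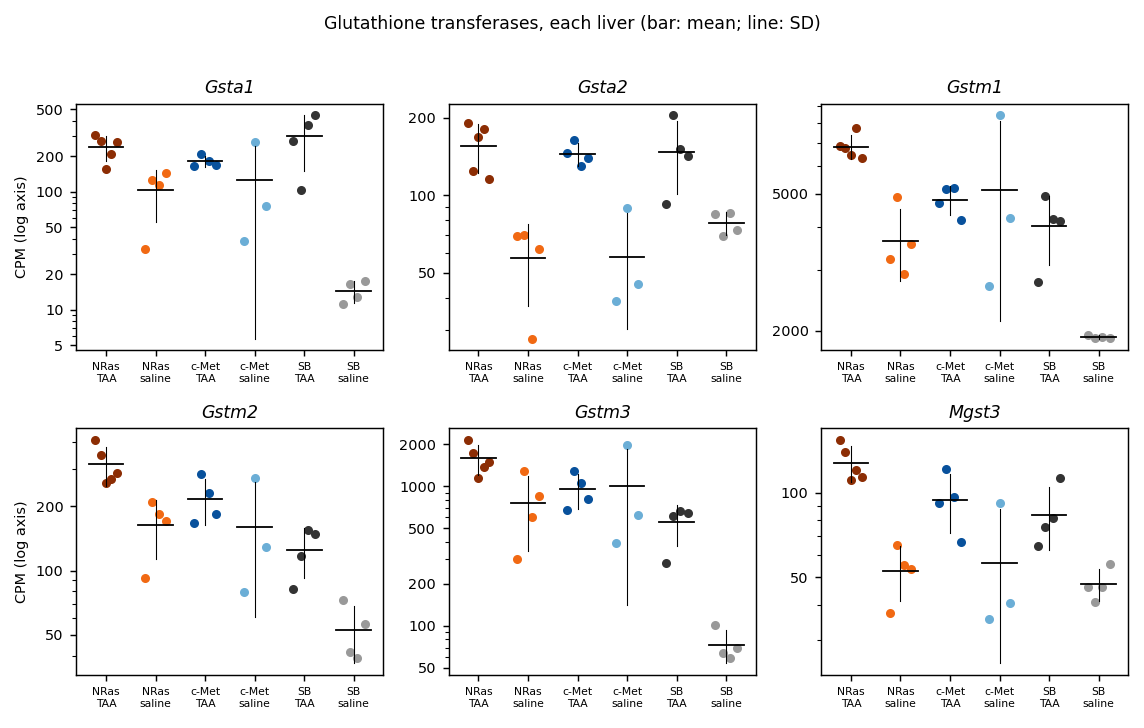
TMM-normalized CPM (log axis) of 6 glutathione transferases in each of the 24 livers (points), by group with SB + saline at the right, with horizontal bars for means and vertical lines for SD. Gsta1 and Gstm3 lie above SB + saline in every other group, while Gsta2 and Mgst3 are highest in the TAA groups.

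The other cytosolic classes gave few calls, all of them lower. Gstk1, the mitochondrial and peroxisomal kappa transferase, had 159, 172, 245, 232 and 149 CPM in SB/AKT/NRas + TAA livers, 221, 151, 102 and 178 in SB/AKT/NRas + saline livers, 174, 214, 239.7 and 185 in SB/AKT/c-Met + TAA livers and 189, 226 and 207 in SB/AKT/c-Met + saline livers. Without oncogenes it had 129, 223, 136 and 149 CPM in SB + TAA livers, against 309, 238, 241 and 265 in SB + saline livers. It fell in SB + TAA (-0.73 ± 0.21, adjusted p = 0.0357) and SB/AKT/NRas + saline livers (-0.69 ± 0.21, 0.0359). Gstz1, which isomerizes maleylacetoacetate in tyrosine breakdown, had 338, 336, 436, 462 and 340.2 CPM in SB/AKT/NRas + TAA livers, 547, 326, 309 and 278 in SB/AKT/NRas + saline livers, 357, 344, 434 and 396 in SB/AKT/c-Met + TAA livers and 412, 474 and 522 in SB/AKT/c-Met + saline livers. Its levels without oncogenes were 351, 478, 435 and 314 CPM in SB + TAA livers, against 621, 618, 486 and 634 in SB + saline livers. Gstz1 fell in SB/AKT/NRas + TAA livers (-0.63 ± 0.18, adjusted p = 0.026) and SB/AKT/NRas + saline livers (-0.69 ± 0.19, 0.0232). None of these 4 calls held with library size alone, where Gstk1 was at -0.36 in SB + TAA livers, or -0.30 in those of SB/AKT/NRas + saline, and Gstz1 at -0.23 in SB/AKT/NRas + TAA livers, or -0.31 in those of SB/AKT/NRas + saline. Leaving out any single SB + saline liver ended both calls of Gstk1, and any but SB + saline replicate 3 ended both of Gstz1, as did several of the other livers.

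The theta transferase Gstt1, which acts on small halogenated compounds, had 255, 217, 285, 334 and 231 CPM in SB/AKT/NRas + TAA livers, 347, 214, 220.3 and 231 in SB/AKT/NRas + saline livers, 246, 247, 235 and 224 in SB/AKT/c-Met + TAA livers and 273, 317 and 314 in SB/AKT/c-Met + saline livers. In livers without oncogenes it had 204, 276, 288 and 218 CPM in SB + TAA livers, against 361, 314, 366 and 400.1 in SB + saline livers. It was called lower only in SB/AKT/c-Met + TAA livers (-0.60 ± 0.17, adjusted p = 0.0427), and its change of -0.55 ± 0.17 with TAA alone had adjusted p = 0.0511. The Gstt1 call was lost with library size alone, at -0.22, without any single SB/AKT/c-Met + TAA liver and without SB + saline replicate 1, 3 or 4. Gstt3 differed among the 6 groups and in no single pair. It had 62.7, 39.1, 40.1, 56.4 and 50.6 CPM in SB/AKT/NRas + TAA livers, 28.1, 21.2, 32.6 and 29.3 in SB/AKT/NRas + saline livers, 24.2, 47.8, 46.3 and 43.5 in SB/AKT/c-Met + TAA livers and 18.97, 26.6 and 31.1 in SB/AKT/c-Met + saline livers. Without oncogenes Gstt3 had 19.1, 34.7, 30.6 and 49.7 CPM in SB + TAA livers, against 42.4, 31.8, 30.6 and 33.4 in SB + saline livers. The SB/AKT/NRas + TAA livers lay above the SB/AKT/NRas + saline ones without overlap. Gstt2 and Gsto1 were not called and ranged over 48.1 to 196 and 41.7 to 136 CPM.

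The pi class did not pass the threshold in any comparison. Gstp1, the pi transferase, ranged over 226 to 806 CPM, and its change of -0.87 ± 0.29 in SB/AKT/NRas + TAA livers against SB + saline had adjusted p = 0.053. SB/AKT/NRas + saline replicate 1 was the highest of all 24 livers for Gstp1, at 806 CPM. Gstp2 had 0 to 12 counts a library, and 62.3% of the windows of Gstp1 and 72.6% of those of Gstp2 occur in other transcripts.

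Among the membrane-bound transferases, Mgst2 and Mgst3 rose and Mgst1 did not pass. Mgst3, a microsomal enzyme with peroxidase activity, had 154, 139.7, 111, 120.3 and 114 CPM in SB/AKT/NRas + TAA livers, 37.4, 65.4, 55.4 and 53.3 in SB/AKT/NRas + saline livers, 91.8, 122, 96.2 and 67.01 in SB/AKT/c-Met + TAA livers and 35.6, 92.2 and 40.5 in SB/AKT/c-Met + saline livers. Its levels without oncogenes were 64.5, 75.3, 81.3 and 113 CPM in SB + TAA livers, against 46.2, 40.9, 46.3 and 55.6 in SB + saline livers. Mgst3 rose by 1.43 ± 0.23 in SB/AKT/NRas + TAA livers (adjusted p = 0.000224), 0.99 ± 0.24 in SB/AKT/c-Met + TAA livers (0.0161) and 0.82 ± 0.24 in SB + TAA livers (0.0403), against 0.16 ± 0.24 in SB/AKT/NRas + saline livers and 0.25 ± 0.26 in SB/AKT/c-Met + saline livers, neither called. The SB + TAA call of Mgst3 was lost in 7 of 17 refits and the SB/AKT/c-Met + TAA call in 4 of 17, with another setting or a liver left out. Mgst2 was scarce: its counts were 5, 12, 2, 10 and 13 in SB/AKT/NRas + TAA livers, 1, 2, 5 and 3 in SB/AKT/NRas + saline livers, 1, 1, 3 and 2 in SB/AKT/c-Met + TAA livers and 0, 0 and 2 in SB/AKT/c-Met + saline livers. In SB + TAA livers Mgst2 had 0, 0, 0 and 1 counts, against 0 in each SB + saline liver. Set against a floor of 3 counts over the 4 SB + saline livers, it was at least 7.6-fold higher in SB/AKT/NRas + TAA livers and at least 2.62-fold higher in SB/AKT/NRas + saline livers (edgeR adjusted p = 0.00176 and 0.0354). The second call rested on 11 counts and was lost with DESeq2, with the replicate block and with only the groups compared. It was also lost without any single SB + saline liver and without SB/AKT/NRas + saline replicate 2, 3 or 4. Mgst1, abundant in liver, ranged over 4194 to 14480 CPM and had a log2 fold change of -0.63 ± 0.29 in SB + TAA livers (adjusted p = 0.205).

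Of the 4 genes of glutathione synthesis and recycling, only Gss was called in any pair. Gss, glutathione synthetase, had 118, 108, 76.2, 72.5 and 108 CPM in SB/AKT/NRas + TAA livers, 65.9, 124, 99.1 and 93.3 in SB/AKT/NRas + saline livers, 86.0, 90.4, 80.9 and 72.97 in SB/AKT/c-Met + TAA livers and 56.9, 139 and 80.2 in SB/AKT/c-Met + saline livers. The livers without oncogenes had 87.3, 95.8, 105 and 90.5 CPM in SB + TAA livers, against 54.3, 58.5, 55.5 and 57.8 in SB + saline livers. It rose by 0.77 ± 0.20 in SB/AKT/NRas + TAA livers (adjusted p = 0.0147), 0.76 ± 0.21 in SB/AKT/NRas + saline livers (0.0249) and 0.74 ± 0.21 in SB + TAA livers (0.0339). The SB + saline livers were tight and overlapped with none of these 3 groups. The SB/AKT/NRas + TAA call held whichever liver was left out. The other calls of Gss were lost without any single SB + saline liver. That in SB + TAA livers was also lost without replicate 1, 3 or 4, and that in SB/AKT/NRas + saline livers without replicate 2 or 3. Gclc and Gclm, the catalytic and modifier subunits of the rate-limiting glutamate-cysteine ligase, had log2 fold changes of 0.59 ± 0.21 and -0.13 ± 0.17 in SB/AKT/NRas + TAA livers (adjusted p = 0.0719 and 0.705). Gsr, glutathione reductase, had 0.53 ± 0.18 there (0.0555).

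Of the 6 NRF2 target oxidoreductases, Nqo1, Srxn1, Cbr1 and Cbr3 rose in both combined groups and in SB/AKT/NRas + saline livers. Cbr3, a carbonyl reductase, had the largest fold change of the 39 members, Mgst2 apart. It had 90.7, 72.2, 57.7, 70.1 and 61.2 CPM in SB/AKT/NRas + TAA livers, 4.39, 29.2, 19.02 and 39.7 in SB/AKT/NRas + saline livers, 49.9, 77.4, 46.3 and 22.8 in SB/AKT/c-Met + TAA livers and 12.03, 47.8 and 7.87 in SB/AKT/c-Met + saline livers. Without oncogenes Cbr3 had 5.71, 9.07, 10.1 and 5.41 CPM in SB + TAA livers, against 2.14, 3.41, 2.41 and 2.14 in SB + saline livers. The SB/AKT/NRas + TAA livers were all above the other NRas livers and above SB + TAA. Cbr3 rose by 4.80 ± 0.56 in SB/AKT/NRas + TAA livers (adjusted p = 3.96e-06), 4.29 ± 0.57 in SB/AKT/c-Met + TAA livers (4.14e-05), 3.22 ± 0.59 in SB/AKT/NRas + saline livers (0.00137) and 3.19 ± 0.62 in SB/AKT/c-Met + saline livers (0.00929), while its 1.58 ± 0.66 with TAA alone was not called (0.162).

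Cbr1, the neighbouring carbonyl reductase, had 198, 198, 153, 189 and 192 CPM in SB/AKT/NRas + TAA livers, 54.05, 106, 87.4 and 116 in SB/AKT/NRas + saline livers, 143, 181, 160.0 and 104 in SB/AKT/c-Met + TAA livers and 62.9, 180.0 and 83.2 in SB/AKT/c-Met + saline livers. Its levels without oncogenes were 56.8, 121, 95.05 and 95.2 CPM in SB + TAA livers, against 43.6, 31.8, 55.5 and 53.9 in SB + saline livers. Cbr1 rose in all 5 groups, by 2.00 ± 0.27 in SB/AKT/NRas + TAA livers (adjusted p = 2.34e-05) and 0.99 ± 0.28 in SB + TAA livers (0.0313). Its SB + TAA and SB/AKT/c-Met + saline calls were lost with limma-voom and with robust estimation. The SB/AKT/c-Met + saline call was also lost without any single SB + saline liver or its own replicate 2 or 3. That in SB + TAA livers was lost without SB + saline replicate 1, 2 or 4 or SB + TAA replicate 2, 3 or 4. The SB/AKT/NRas + saline call was lost without SB + saline replicate 1 or 2 or its own replicate 2, 3 or 4. Srxn1, the sulfiredoxin that repairs over-oxidized peroxiredoxins, had 133, 119, 80.2, 74.9 and 97.8 CPM in SB/AKT/NRas + TAA livers, 21.5, 82.8, 53.9 and 128 in SB/AKT/NRas + saline livers, 78.7, 153, 106 and 66.7 in SB/AKT/c-Met + TAA livers and 44.4, 55.0 and 36.7 in SB/AKT/c-Met + saline livers. Without oncogenes Srxn1 had 62.8, 39.8, 41.9 and 44.3 CPM in SB + TAA livers, against 17.96, 19.9, 17.7 and 24.4 in SB + saline livers. It rose by 2.33 ± 0.34 in SB/AKT/NRas + TAA livers (adjusted p = 5.53e-05), 2.34 ± 0.35 in SB/AKT/c-Met + TAA livers (0.000141), 1.84 ± 0.34 in SB/AKT/NRas + saline livers (0.00152) and 1.24 ± 0.34 in SB + TAA livers (0.0308). The SB + TAA call of Srxn1 was lost in 8 of 17 refits, with another setting or a liver left out. Replicate 1 of SB/AKT/NRas + saline livers, at 21.5 CPM, was within the SB + saline range.

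Nqo1, the quinone reductase that is the usual readout of NRF2, had 49.03, 41.6, 30.4, 29.6 and 20.8 CPM in SB/AKT/NRas + TAA livers, 9.67, 24.7, 17.3 and 32.2 in SB/AKT/NRas + saline livers, 30.7, 45.7, 27.6 and 24.6 in SB/AKT/c-Met + TAA livers and 11.6, 22.2 and 12.7 in SB/AKT/c-Met + saline livers. The livers without oncogenes had 13.1, 13.4, 14.98 and 25.9 CPM in SB + TAA livers, against 11.1, 10.2, 9.26 and 5.56 in SB + saline livers. Nqo1 rose by 1.92 ± 0.33 in SB/AKT/NRas + TAA livers (adjusted p = 0.000367), 1.83 ± 0.34 in SB/AKT/c-Met + TAA livers (0.00163) and 1.23 ± 0.34 in SB/AKT/NRas + saline livers (0.0252), and its 0.92 ± 0.35 in SB + TAA livers was not called (0.121). The SB/AKT/NRas + saline call of Nqo1 was lost in 5 of 17 refits, with another setting or a liver left out. Txnrd1, thioredoxin reductase, and Hmox1, which opens heme, were not called in any comparison. Txnrd1 had a log2 fold change of 0.51 ± 0.18 in SB/AKT/NRas + TAA livers (adjusted p = 0.0654) and Hmox1 of 1.09 ± 0.40 (0.0869).

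Nat8, which acetylates cysteine conjugates in the last step of mercapturic acid formation, was the member that fell everywhere. It had 12.3, 5.99, 19.4, 21.99 and 13.8 CPM in SB/AKT/NRas + TAA livers, 43.9, 15.7, 6.53 and 16.6 in SB/AKT/NRas + saline livers, 26.5, 17.6, 26.7 and 21.8 in SB/AKT/c-Met + TAA livers and 26.8, 16.7 and 18.7 in SB/AKT/c-Met + saline livers. Without oncogenes Nat8 had 27.2, 46.5, 33.3 and 13.5 CPM in SB + TAA livers, against 65.02, 67.01, 78.5 and 84.3 in SB + saline livers. All 20 other livers were below the lowest SB + saline liver. Nat8 fell in SB/AKT/NRas + TAA livers (-2.33 ± 0.36, adjusted p = 0.000116), SB/AKT/NRas + saline livers (-1.87 ± 0.38, 0.00277), SB/AKT/c-Met + TAA livers (-1.67 ± 0.37, 0.00844), SB/AKT/c-Met + saline livers (-1.84 ± 0.42, 0.0306) and SB + TAA livers (-1.30 ± 0.37, 0.0319). The SB + TAA call was lost without SB + saline replicate 2, 3 or 4 or SB + TAA replicate 1, 3 or 4, and the SB/AKT/c-Met + saline call without any single SB + saline liver or SB/AKT/c-Met + saline replicate 2 or 3.

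Ugdh, which makes the UDP-glucuronic acid used for glucuronidation, had 407, 333, 348, 339 and 349.9 CPM in SB/AKT/NRas + TAA livers, 293, 327, 149 and 248 in SB/AKT/NRas + saline livers, 383, 378, 394 and 310.5 in SB/AKT/c-Met + TAA livers and 198, 426 and 245 in SB/AKT/c-Met + saline livers. Its levels without oncogenes were 345, 359, 586 and 416 CPM in SB + TAA livers, against 266, 173, 192 and 161 in SB + saline livers. Ugdh rose in the 3 TAA groups, by 1.10 ± 0.23 in SB + TAA (adjusted p = 0.00479), 0.84 ± 0.22 in SB/AKT/NRas + TAA livers (0.0143) and 0.89 ± 0.23 in SB/AKT/c-Met + TAA livers (0.0247), and its 0.36 ± 0.23 and 0.55 ± 0.25 in the SB/AKT/NRas + saline livers and SB/AKT/c-Met + saline livers were not called. The SB/AKT/c-Met + TAA call of Ugdh was lost in 6 of 17 refits, all with a liver left out. Ephx1, the microsomal epoxide hydrolase, ranged over 235 to 753 CPM and was not called.

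In the pentose phosphate pathway 3 of 4 members differed among the groups. G6pdx, which catalyzes the first NADPH-forming step, had 22.7, 21.4, 14.1, 15.8 and 28.8 CPM in SB/AKT/NRas + TAA livers, 5.27, 23.3, 38.04 and 31.2 in SB/AKT/NRas + saline livers, 22.6, 25.3, 18.4 and 18.9 in SB/AKT/c-Met + TAA livers and 7.40, 4.44 and 4.87 in SB/AKT/c-Met + saline livers. Without oncogenes G6pdx had 12.8, 7.49, 16.2 and 12.7 CPM in SB + TAA livers, against 3.85, 1.14, 8.45 and 3.42 in SB + saline livers. The 3 SB/AKT/c-Met + saline livers were within the SB + saline range. G6pdx rose by 2.49 ± 0.43 in SB/AKT/NRas + saline livers (adjusted p = 0.000848), 2.22 ± 0.42 in SB/AKT/NRas + TAA livers (0.00106), 2.26 ± 0.43 in SB/AKT/c-Met + TAA livers (0.00223) and 1.49 ± 0.45 in SB + TAA livers (0.0452). The SB + TAA call of G6pdx was lost in 9 of 17 refits, with another setting or a liver left out. Set directly against SB/AKT/c-Met + saline livers, G6pdx in SB/AKT/NRas + saline livers was higher by 2.17 ± 0.45 (adjusted p = 0.044), the 1 member called in that comparison (background 0.124% higher and 0.0103% lower). That call was lost without any single SB/AKT/c-Met + saline liver and without SB/AKT/NRas + saline replicate 2, 3 or 4, with 0 members then called.

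Pgd, the second NADPH-forming enzyme, had 127, 137, 102, 84.9 and 139 CPM in SB/AKT/NRas + TAA livers, 28.1, 84.2, 96.5 and 100.5 in SB/AKT/NRas + saline livers, 81.4, 116, 86.8 and 94.4 in SB/AKT/c-Met + TAA livers and 53.2, 65.2 and 67.1 in SB/AKT/c-Met + saline livers. The livers without oncogenes had 94.05, 44.95, 81.6 and 72.2 CPM in SB + TAA livers, against 31.2, 28.96, 28.2 and 26.96 in SB + saline livers. Pgd rose by 2.03 ± 0.26 in SB/AKT/NRas + TAA livers (adjusted p = 1.14e-05), 1.71 ± 0.27 in SB/AKT/c-Met + TAA livers (0.000281), 1.43 ± 0.27 in SB/AKT/NRas + saline livers (0.00157) and 1.35 ± 0.27 in SB + TAA livers (0.00333). Those 4 calls held under every omission of a liver.

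Tkt, transketolase of the non-oxidative branch, had a different pattern. It had 275, 289, 205, 219 and 253 CPM in SB/AKT/NRas + TAA livers, 82.6, 153, 128 and 145 in SB/AKT/NRas + saline livers, 200.4, 229.6, 187 and 155 in SB/AKT/c-Met + TAA livers and 121, 129 and 129 in SB/AKT/c-Met + saline livers. Its levels without oncogenes were 103, 96.6, 94.8 and 76.5 CPM in SB + TAA livers, against 91.5, 88.02, 86.5 and 75.3 in SB + saline livers. With TAA alone the log2 fold change of Tkt was 0.12 ± 0.17 (adjusted p = 0.757), and the livers of both groups overlapped. Tkt rose by 1.54 ± 0.17 in SB/AKT/NRas + TAA livers (1.65e-06), 1.18 ± 0.17 in SB/AKT/c-Met + TAA livers (0.000136) and 0.58 ± 0.17 in SB/AKT/NRas + saline livers (adjusted p = 0.0353). The last call was lost with limma-voom, with only the groups compared and without any single SB + saline liver. It was also lost without SB/AKT/NRas + saline replicate 2, 3 or 4. In SB/AKT/c-Met + saline livers Tkt was not called, at a mean of 126.3 CPM, against 127 CPM in SB/AKT/NRas + saline livers. Every SB/AKT/c-Met + saline liver lay above every SB + saline liver. Taldo1, transaldolase of the same branch, was not called and ranged over 117 to 203 CPM.

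**Figure D4:**
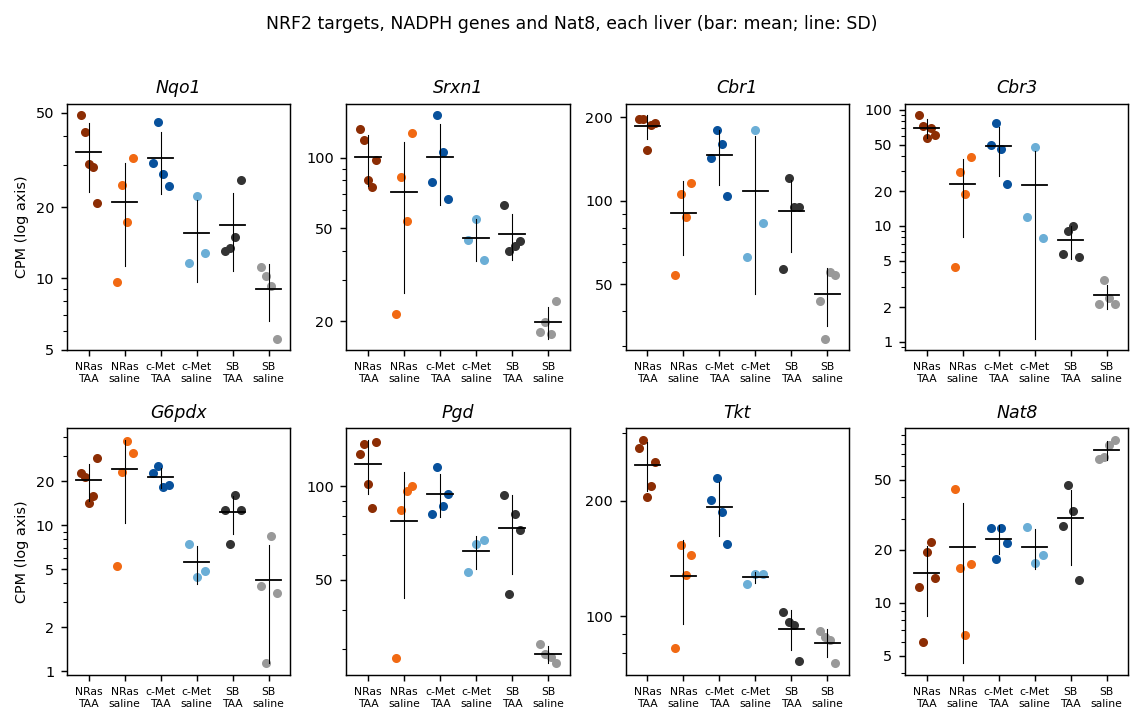
TMM-normalized CPM (log axis) of 4 NRF2 target oxidoreductases, 3 pentose phosphate genes and Nat8 in each of the 24 livers (points), by group with SB + saline at the right, with bars for means and lines for SD. Nat8 is highest in SB + saline, Tkt in SB + TAA lies with SB + saline, and SB/AKT/NRas + saline replicate 1 lies apart from the other 3 livers of its group in most panels.

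The combined groups were next set against TAA alone, which asks what the oncogenes added in injured livers. In SB/AKT/NRas + TAA livers set against SB + TAA 7 members were called, all higher (background 1.01% higher and 0.464% lower, or 1.47% in both directions): Gstm2 (1.32 ± 0.28, adjusted p = 0.00969), Gstm3 (1.53 ± 0.38, 0.0342), Gstm4 (0.98 ± 0.23, 0.0193), Cbr1 (1.01 ± 0.26, 0.0372), Cbr3 (3.22 ± 0.46, 9.45e-05), Tkt (1.42 ± 0.17, 8.94e-06) and Mgst2, with 42 counts over 5 livers against 1 count over 4. Without SB + TAA replicate 1 the count was 3, Mgst2, Cbr3 and Tkt, and without SB + TAA replicate 4, the liver with the muscle genes, it was 5, with Gstm3, Gstm4 and Cbr1 lost and Nqo1 added. Gstm3 and Cbr1 were also lost without SB + TAA replicate 3 or SB/AKT/NRas + TAA replicate 1, 2 or 5, and Cbr1 without SB/AKT/NRas + TAA replicate 4. In SB/AKT/c-Met + TAA livers set against SB + TAA Cbr3 (2.70 ± 0.47, adjusted p = 0.00329) and Tkt (1.06 ± 0.17, 0.00161) were higher (background 0.268% higher and 0.134% lower), and both calls held whichever liver was left out. Gsta1, at -0.32 ± 0.39 and -0.72 ± 0.42 in the NRas and c-Met comparisons, was not called (adjusted p = 0.836 and 0.632).

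They were also set against the same oncogenes with saline, which asks what TAA added. In SB/AKT/NRas + TAA livers set against SB/AKT/NRas + saline livers Gsta2, Mgst3 (1.27 ± 0.23, adjusted p = 0.00933) and Tkt (0.96 ± 0.16, 0.00671) were higher (background 0.124% higher and 0.0516% lower), with or without any 1 liver, SB/AKT/NRas + saline replicate 1 included. The Tkt call was lost with library size alone and with only the groups compared (adjusted p up to 0.0724). In SB/AKT/c-Met + TAA livers set against SB/AKT/c-Met + saline livers Gsta2 alone was called (background 0.134% higher and 0.103% lower). That call was lost when SB/AKT/c-Met + saline replicate 1 or 3 or any SB/AKT/c-Met + TAA liver was left out, and 2 members, Gsta2 and Mgst3, were called without SB/AKT/c-Met + saline replicate 2. Between the combined groups, SB/AKT/NRas + TAA livers set against SB/AKT/c-Met + TAA livers, edgeR called 0 of 39 members (background 0.00516% in each direction), limma-voom 0 and DESeq2 0, and 4 had an unadjusted p under 0.05, Gstm1, Gstm6, Mgst2 and Tkt.

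The effect of TAA itself differed with the oncogenes for 1 member. TAA raised Gsta1 by 4.37 ± 0.50 in SB livers, while its change with TAA was 1.19 ± 0.41 in SB/AKT/NRas livers and 0.53 ± 0.46 in SB/AKT/c-Met livers (adjusted p = 0.361 and 0.807). The difference of effects was -3.18 ± 0.61 for SB/AKT/NRas (adjusted p = 0.0116, background 0.181% higher and 0.578% lower) and -3.84 ± 0.65 for SB/AKT/c-Met (0.0236, background 0% and 0.0103%). These contrasts share the 8 SB livers, and on the plain scale the mean of Gsta1 was 239.9 ± 56.6 CPM in SB/AKT/NRas + TAA livers, 182 ± 19.8 CPM in SB/AKT/c-Met + TAA livers and 299 ± 149 CPM in SB + TAA livers (SD), against 105 ± 49.6 CPM, 126 ± 119.9 CPM and 14.5 ± 3.01 CPM with saline. For Gstm3 the differences were -1.85 ± 0.54 and -2.97 ± 0.58 and were not called (adjusted p = 0.101 and 0.091).

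Both Gsta1 differences fell short of the threshold with limma-voom and with robust estimation. Without SB/AKT/NRas + saline replicate 1, 8 members differed in the SB/AKT/NRas contrast: Gsta1, Gsta3, Gstm3, Gstt1, Gstk1, Gstz1, G6pdx and Pgd, 4 in each direction, and without SB + TAA replicate 2 it was 2, Gsta1 and Gstk1. The SB/AKT/c-Met difference of Gsta1 was lost without SB + saline replicate 1, 3 or 4, SB + TAA replicate 3, SB/AKT/c-Met + saline replicate 2 or SB/AKT/c-Met + TAA replicate 1 or 3, with 0 members called, and Gstm3 joined it, making 2, without SB + TAA replicate 1 or 2 or SB/AKT/c-Met + saline replicate 1.

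**Figure D5:**
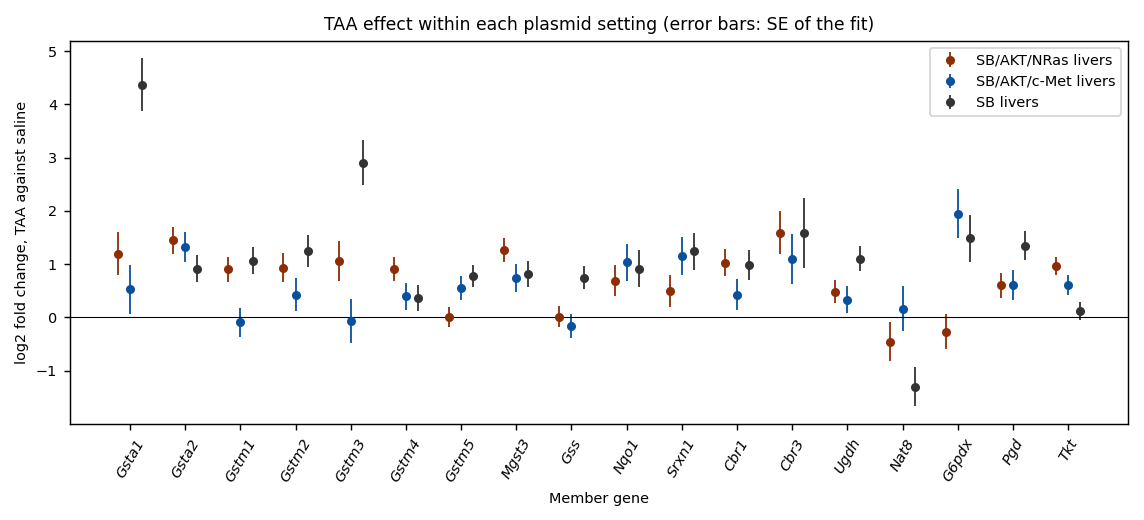
Log2 fold change of TAA against saline (y axis) for 18 members (x axis) in SB/AKT/NRas, SB/AKT/c-Met and SB livers, with SE bars from the edgeR fit. The SB point of Gsta1 is at 4.37 and those of the oncogene livers are at 1.19 and 0.53, while Gsta2 is between 0.92 and 1.45 in all 3.

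The promoters of the members were searched for the core of the antioxidant response element, because NRF2 binds this element. The window was 250 bases before to 50 bases after each RefSeq start (GRCm38.p6), and the core was TGACNNNGC on either strand, which shares its TGAC with AP-1 and other bZIP sites. Of 34 members with a promoter in the table, 10 held the core (29.41%), against 13.99% of 27025 genes. By promoter it was 21.74% of 46 for the members, against 12.39% of 32851. Gsta4, Gstt2, Gclc, Gsr and Hmox1 had no entry. The sites shown are upstream of the start in 3 members that rose (Ugdh with a site on each strand, Gstm5, G6pdx) and in 2 that were not called (Gclm, Txnrd1), each as 29 bases in the direction of the gene with the core in capitals.
Ugdh, chr5:65435956-65435984, - strand: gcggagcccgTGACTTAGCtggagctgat
Ugdh, chr5:65435918-65435946, - strand: tcctcaagggGCGTGGTCAtacagttcgg
Gstm5, chr3:107895802-107895830, + strand: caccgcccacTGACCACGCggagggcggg
G6pdx, chrX:74428919-74428947, - strand: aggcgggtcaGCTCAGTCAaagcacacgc
Gclm, chr3:122245413-122245441, + strand: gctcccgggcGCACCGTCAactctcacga
Txnrd1, chr10:82859104-82859132, + strand: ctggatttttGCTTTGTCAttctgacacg
The cores span -132 to -124 and -94 to -86 from the start in Ugdh, -42 to -34 in Gstm5, -57 to -49 in G6pdx, -134 to -126 in Gclm and -92 to -84 in Txnrd1. The second site of Ugdh and those of G6pdx, Gclm and Txnrd1 read GCNNNGTCA in this direction. Gsta3, Gstm7 and Mgst1, which were not called in any comparison, also held the core upstream of the start. Srxn1 and Pgd, which rose, held it after the start. The core was found among members that rose and among members that did not, and its letters were not in the windows of Nqo1, Gstm3 and Cbr3.

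The regulators of the pathway and its other genes were read from lists that hold no members. Nfe2l2, which encodes NRF2, had 167, 141, 122, 142 and 116 CPM in SB/AKT/NRas + TAA livers, 83.9, 117, 141 and 154 in SB/AKT/NRas + saline livers, 138, 156, 132 and 140.0 in SB/AKT/c-Met + TAA livers and 89.3, 94.97 and 121 in SB/AKT/c-Met + saline livers. Without oncogenes Nfe2l2 had 126, 89.9, 111 and 104 CPM in SB + TAA livers, against 54.8, 88.02, 83.7 and 89.0 in SB + saline livers. Nfe2l2 rose by 0.80 ± 0.18 in SB/AKT/NRas + TAA livers (adjusted p = 0.00378), 0.66 ± 0.18 in SB/AKT/NRas + saline livers (0.0246) and 0.85 ± 0.18 in SB/AKT/c-Met + TAA livers (0.00678). Keap1 was not called in any comparison and had a log2 fold change of -0.27 ± 0.13 in SB/AKT/NRas + TAA livers (adjusted p = 0.23). Of the 10 genes of NRF2 control, 3 rose in SB/AKT/NRas + TAA livers, 3 in SB/AKT/NRas + saline livers, 1 in SB/AKT/c-Met + TAA livers and 1 in SB + TAA livers, against backgrounds of 5.69%, 5.54%, 2.68% and 3.46% of all genes that rose, among them Mafk, a small Maf partner of NRF2, and Sqstm1, the autophagy receptor that binds KEAP1. The call in SB + TAA livers, Mafk, was lost in 6 of 8 omissions of a liver, SB + TAA replicate 4 among them, and that of Nfe2l2 in SB/AKT/NRas + saline livers without SB + saline replicate 1 or SB/AKT/NRas + saline replicate 3 or 4.

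Of 14 other NRF2 targets, 7 rose in SB/AKT/NRas + TAA livers, 3 in SB/AKT/NRas + saline livers, 2 in SB/AKT/c-Met + TAA livers, 1 in SB/AKT/c-Met + saline livers and 2 in SB + TAA livers, where 5.69%, 5.54%, 2.68%, 0.599% and 3.46% of all genes rose. In SB + TAA livers 1 of the 2, Slc48a1, was lost without replicate 4, and the SB/AKT/c-Met + saline call, Me1, held only without SB + saline replicate 1. Slc7a11, the cystine importer that feeds glutathione synthesis, had 56.03, 51.7, 36.98, 22.3 and 39.4 CPM in SB/AKT/NRas + TAA livers, 0.439, 11.1, 13.3 and 37.7 in SB/AKT/NRas + saline livers, 51.5, 46.8, 37.1 and 14.03 in SB/AKT/c-Met + TAA livers and 0.925, 0.342 and 0 in SB/AKT/c-Met + saline livers. Without oncogenes Slc7a11 had 22.2, 4.34, 13.1 and 15.9 CPM in SB + TAA livers, against 0, 0.568, 0.402 and 1.28 in SB + saline livers. It was near 0 in SB/AKT/c-Met + saline livers, which had 3 counts in all, in the SB + saline livers, with 5, and in SB/AKT/NRas + saline replicate 1. The log2 rise of Slc7a11 was 6.43 ± 0.97 for SB/AKT/c-Met + TAA livers set against SB/AKT/c-Met + saline livers (adjusted p = 0.000658) and 4.54 ± 0.92 for SB + TAA livers set against SB + saline (0.00359). Gpx2, a glutathione peroxidase of epithelia, had 4, 9, 6, 0 and 33 counts in SB/AKT/NRas + TAA livers and 1, 9, 26 and 2 in SB/AKT/NRas + saline livers, against 0 in each SB + saline liver (adjusted p = 0.0151 and 0.0202). The livers with 33 and 26 counts, which were replicate 5 of the SB/AKT/NRas + TAA livers and replicate 3 of the SB/AKT/NRas + saline livers, also had the highest summed bile duct level of their groups, 4767 and 8806 CPM. That sum was mostly Spp1. Each call was lost without its liver (adjusted p = 0.0565 and 0.119), the SB/AKT/NRas + saline call also without SB + saline replicate 1 or 4. Slc48a1, a heme transporter, rose by 1.51 ± 0.22 in SB/AKT/NRas + TAA livers (6.87e-05) and Me1, the cytosolic malic enzyme that also forms NADPH, by 1.03 ± 0.23 (0.00473).

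Of 23 other glutathione enzymes tested, 5 rose and 1 fell in SB/AKT/NRas + TAA livers, 1 rose and 2 fell in SB/AKT/NRas + saline livers, 2 rose in SB/AKT/c-Met + TAA livers and 2 rose in SB + TAA livers. The backgrounds were 5.69% higher and 3.57% lower, 5.54% and 2.87%, 2.68% and 1.08%, and 3.46% and 2.52%, so that in SB/AKT/NRas + saline livers the share that rose, 1 of 23, was no larger than that of all genes. Gpx7, a peroxidase of the endoplasmic reticulum, rose in all 4, by 3.31 ± 0.63 in SB/AKT/NRas + TAA livers (adjusted p = 0.00113) and 2.68 ± 0.67 in SB + TAA livers (0.0172), the last lost without SB + TAA replicate 4 or SB + saline replicate 2 or 3 and the SB/AKT/NRas + saline call without replicate 3. Of 16 other NADPH genes, 2 fell in each of SB/AKT/NRas + TAA livers, SB/AKT/NRas + saline livers and SB + TAA livers. The backgrounds of genes that fell were 3.57%, 2.87% and 2.52%. Aldh1l1, which forms NADPH in folate metabolism, fell in all 3, and its change in SB/AKT/NRas + TAA livers was -1.01 ± 0.22 (adjusted p = 0.00337). Its SB + TAA call was lost in 7 of 8 omissions of a liver, SB + TAA replicate 4 among them. Nadk2, the mitochondrial NAD kinase, fell with it in SB/AKT/NRas + TAA livers (-0.80 ± 0.25, 0.0394), a call lost in 5 of 9 omissions.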

How the data were processed

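The authors extracted RNA from snap-frozen liver, primed it at the poly(A) tail with indexed primers, aligned reads with STAR to GRCm38 plus the human NRAS and MET sequences, removed duplicate molecular tags and counted reads per gene with featureCounts 1.6.4, stranded and with mapping quality 10 or more. The deposited values are raw counts, used as given. Counts were normalized by TMM, and CPM in the text are TMM-normalized. The filter kept genes that reached 0.5 CPM in 2 or more of the 24 libraries. All 24 libraries were fitted with 6 group means in edgeR 4.0.16 (R 4.3.3), by the quasi-likelihood test with Benjamini-Hochberg adjustment over 19381 genes, where the study used limma-voom. A call is an adjusted p under 0.05, all tests are two-sided, and SE is the absolute log2 fold change over the root of F. The scripts were tested on simulated data. Alternatives were limma-voom 3.58.1, DESeq2 1.42.0, other scalings and filters, robust estimation, a fold threshold, fits of only the groups compared, a replicate block, and each liver left out. Omissions for the marker and pathway lists were chosen after seeing the data. Every one of the 39 members may be named, with each liver's value for those called. Of the pathway lists, up to 4 called genes were eligible by size of change, with Nfe2l2 and Keap1 always. The members and lists were chosen with earlier results of these data known. Depth limits scarce genes, and floors and counts cover counting error only. Replicates are separate mice. Promoter sequences are those of RefSeq (GRCm38.p6). Windows shared between transcripts were counted in GENCODE vM21.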

Additional observations from a re-analysis of the deposited data

Results flagged for a closer look

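In the main fit, the TAA effect on Gsta1 differed between plasmid settings by a test of the difference itself. It was lower by 3.18 on the log2 scale in SB/AKT/NRas than in SB livers (a difference of -3.18) and lower by 3.84 in SB/AKT/c-Met than in SB livers (a difference of -3.84). Both differences fell short of the threshold with limma-voom and with robust estimation. The SB/AKT/c-Met difference was also lost when any of several livers was left out. Of the Gsta1 windows 89.7% occur in other transcripts, so its level is uncertain.

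In 11 of 195 sets of 4 or 5 livers, 1 liver of a group lay far from the rest for a member, by Dixon's test, where chance alone gives about 1 in 20, or 9.8. In SB/AKT/NRas + TAA livers, Cbr1 was low in replicate 3 (153 CPM, next 189 CPM) and Ugdh high in replicate 1 (407 CPM, next 349.9 CPM). In SB/AKT/NRas + saline livers, replicate 1 was high for Gstp1 (806 CPM, next 316 CPM) and Gstt1 (347 CPM, next 231 CPM). In SB + TAA livers, replicate 1 was low for Gsta4 (179 CPM, next 225 CPM) and Gstm3 (284 CPM, next 612 CPM), and replicate 4, the liver with skeletal muscle genes, was high for Nqo1 (25.9 CPM, next 14.98 CPM) and held the group's only Mgst2 count (0.270 CPM, next 0 CPM). In SB + saline livers, replicate 3 was high for Gsta4 (199 CPM, next 145 CPM) and low for Gstz1 (486 CPM, next 618 CPM) and Gclm (191 CPM, next 223 CPM).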

How the results depend on the processing

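Over 91 pairs of a member and a comparison in which it was called, 1581 refitted values kept their direction throughout, 1338 kept their call and 243 lost it, 191 of these with a liver left out. Of 19 members that differed among the groups, leaving out 1 liver gave 16 to 26. The counts of members called ran from 17 to 24 for SB/AKT/NRas + TAA against SB + saline, 8 to 23 for SB/AKT/NRas + saline livers, 12 to 15 for SB/AKT/c-Met + TAA livers, 1 to 8 for SB/AKT/c-Met + saline livers and 5 to 15 for SB + TAA. Against SB + TAA they ran from 3 to 7 for SB/AKT/NRas + TAA livers and stayed at 2 for SB/AKT/c-Met + TAA livers, and for TAA against saline they stayed at 3 in SB/AKT/NRas and ran from 0 to 2 in SB/AKT/c-Met livers. Between SB/AKT/NRas + saline livers and SB/AKT/c-Met + saline livers it was 0 to 1, and for the difference of TAA effects 1 to 8 in SB/AKT/NRas and 0 to 2 in SB/AKT/c-Met livers.

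Counts that moved by more than 1.5 times were as follows, and the causes were not tested where none is given. A fold threshold gave 9 for SB + TAA and 10 for SB/AKT/NRas + saline against SB + saline. With limma-voom it was 4 for SB/AKT/c-Met + saline against SB + saline, 5 for SB/AKT/NRas + TAA livers set against SB/AKT/NRas + saline livers, and 0 for SB/AKT/NRas + saline livers set against SB/AKT/c-Met + saline livers and for both differences of TAA effects. DESeq2 gave 7 for SB/AKT/NRas + TAA livers set against SB/AKT/NRas + saline livers, 2 for SB/AKT/c-Met + TAA livers set against SB/AKT/c-Met + saline livers, and 4 (SB/AKT/NRas) and 3 (SB/AKT/c-Met) for the differences of TAA effects. Scaling by library size alone gave 3 for the SB/AKT/NRas difference of TAA effects and 0 for SB/AKT/NRas + saline livers set against SB/AKT/c-Met + saline livers, and it raised the median log2 fold change of all genes against SB + saline by 0.26 to 0.43. It also ended the calls of Gstk1, Gstz1 and Gstt1 against SB + saline and of Tkt for TAA in SB/AKT/NRas livers. With no filter on low counts it was 11 for SB/AKT/NRas + TAA livers set against SB + TAA, 11 against SB/AKT/NRas + saline livers, 6 for SB/AKT/c-Met + TAA livers set against SB + TAA, 5 against SB/AKT/c-Met + saline livers, and 4 (SB/AKT/NRas) and 3 (SB/AKT/c-Met) for the differences of TAA effects. The stricter edgeR filter gave 0 for SB/AKT/NRas + saline livers set against SB/AKT/c-Met + saline livers. Robust estimation gave 4 for SB/AKT/c-Met + saline against the SB + saline livers, 1 for SB/AKT/c-Met + TAA livers set against SB + TAA, and 0 for SB/AKT/c-Met + TAA livers set against SB/AKT/c-Met + saline livers, for SB/AKT/NRas + saline livers set against SB/AKT/c-Met + saline livers and for both differences of TAA effects. Fits of only the groups compared, with fewer samples, gave 26 for SB/AKT/c-Met + TAA livers and 13 for SB/AKT/c-Met + saline against the SB + saline livers, 4 for SB/AKT/c-Met + TAA livers set against SB/AKT/c-Met + saline livers, 0 for SB/AKT/NRas + saline livers set against SB/AKT/c-Met + saline livers and 2 for the SB/AKT/c-Met difference of TAA effects.

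Livers of the same replicate number in different groups did not deviate together (mean correlation -0.00717 over 55 pairs, against 0.00211 over 184 pairs of different numbers), so the numbers were not taken as pairs. With the replicate block the count for SB/AKT/NRas + saline livers set against SB/AKT/c-Met + saline livers was 0, and the other counts stayed within 1.5 times.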
